A study of Vitis vinifera with 12 samples.

Results

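The stilbene synthase genes of the grapevine (Vitis vinifera) stand mostly in a pair of tandem arrays, a large one on chromosome 16 and a small one on chromosome 10. Members were taken by ID alone: every listed row from VIT_16s0100g00750 to VIT_16s0100g01200 and from VIT_10s0042g00840 to VIT_10s0042g00930. This gave 34 rows in the chromosome 16 array and 7 in the chromosome 10 array, 41 of the 22580 rows of the expression table. The ID numbers run in steps of 10, so the ranges hold 46 and 10 possible numbers. The unlisted numbers were not analysed here. The table pairs no ID with a product name. None of its 22580 IDs, the 41 members included, matched the RefSeq gene table used here. That the ranges are stilbene synthase arrays rests on their description, which the values cannot check.

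Berries of the table-grape cultivar Victoria were sequenced at 4 ages counted from full bloom: 40, 50, 60 and 80 days. Each age has 3 libraries, called a, b and c, which makes 12. All groups share the cultivar and the tissue, and no treatment is labelled. Per the labels' protocols, RNA of several biological replicates was extracted separately and then pooled, and the libraries were made from polyadenylated RNA. Whether the libraries of an age are separate pools is not stated, so the spread behind every p-value is that among the libraries and may be technical. Values are FPKM, fragments per kilobase of transcript per 1000000 fragments.

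Stilbene synthase condenses a coumaroyl starter from the phenylpropanoid pathway with malonyl units and forms resveratrol, the parent of grapevine stilbenes. Chalcone synthase, the entry enzyme of flavonoid synthesis, uses the same substrates, and both belong to the plant polyketide synthases. Stilbenes are known as phytoalexins: stilbene synthase transcripts are typically low in healthy green tissue and are strongly induced by pathogens, ultraviolet light and wounding. In some cultivars they also accumulate in the berry skin during ripening.

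Both arrays were at or near 0 in Victoria berries at every age. The highest value of any member in any library was 0.286 FPKM in the chromosome 10 array and 0.179 FPKM in the chromosome 16 array. The 2 arrays together summed to between 0.151 FPKM (60 days, library b) and 0.772 FPKM (80 days, library c), in libraries whose whole columns summed to at least 1058844 FPKM. Of the 34 members on chromosome 16, 13 were listed at 0 in all 12 libraries, as was 1 of the 7 on chromosome 10 (VIT_10s0042g00840, the first member of that array). Among all rows of the table, 8.60% were at 0 in all libraries, but among the rows outside the arrays that stayed below 0.3 FPKM in every library the share was 42.5%. That is above the 38.2% of the chromosome 16 array and the 14.3% of the chromosome 10 array. The median member had a mean over all libraries of 0.00322 FPKM, against 4.23 FPKM for the median row of the table.

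Stilbene synthase copies of an array are near-identical in sequence. How the authors' software assigned fragments that match several copies is not given in the sources used here, so the value of a single member is uncertain and its part in the low values was not tested. The table also holds 789 rows called newGene, which carry no position and cannot be assigned to an array or kept from one.

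The edges of the chromosome 16 array were sharp. The last listed row before it, VIT_16s0100g00740, had values between 7.17 and 48.4 FPKM with a median of 24.3 FPKM. The first member, VIT_16s0100g00750, was at 0.0481 FPKM in library a and 0.0898 FPKM in library b at 40 days, at 0.169 FPKM in library c at 80 days, and at 0 in the other 9 libraries. At the far end VIT_16s0100g01200 was at 0.0469 and 0.0369 FPKM in libraries b and c at 50 days, at 0.0396 FPKM in library c at 80 days, and at 0 elsewhere. The next listed row, VIT_16s0100g01210, had between 6.35 and 18.8 FPKM with a median of 9.02 FPKM. All libraries of both outer rows therefore lay above all libraries of both end members.

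**Figure D1:**
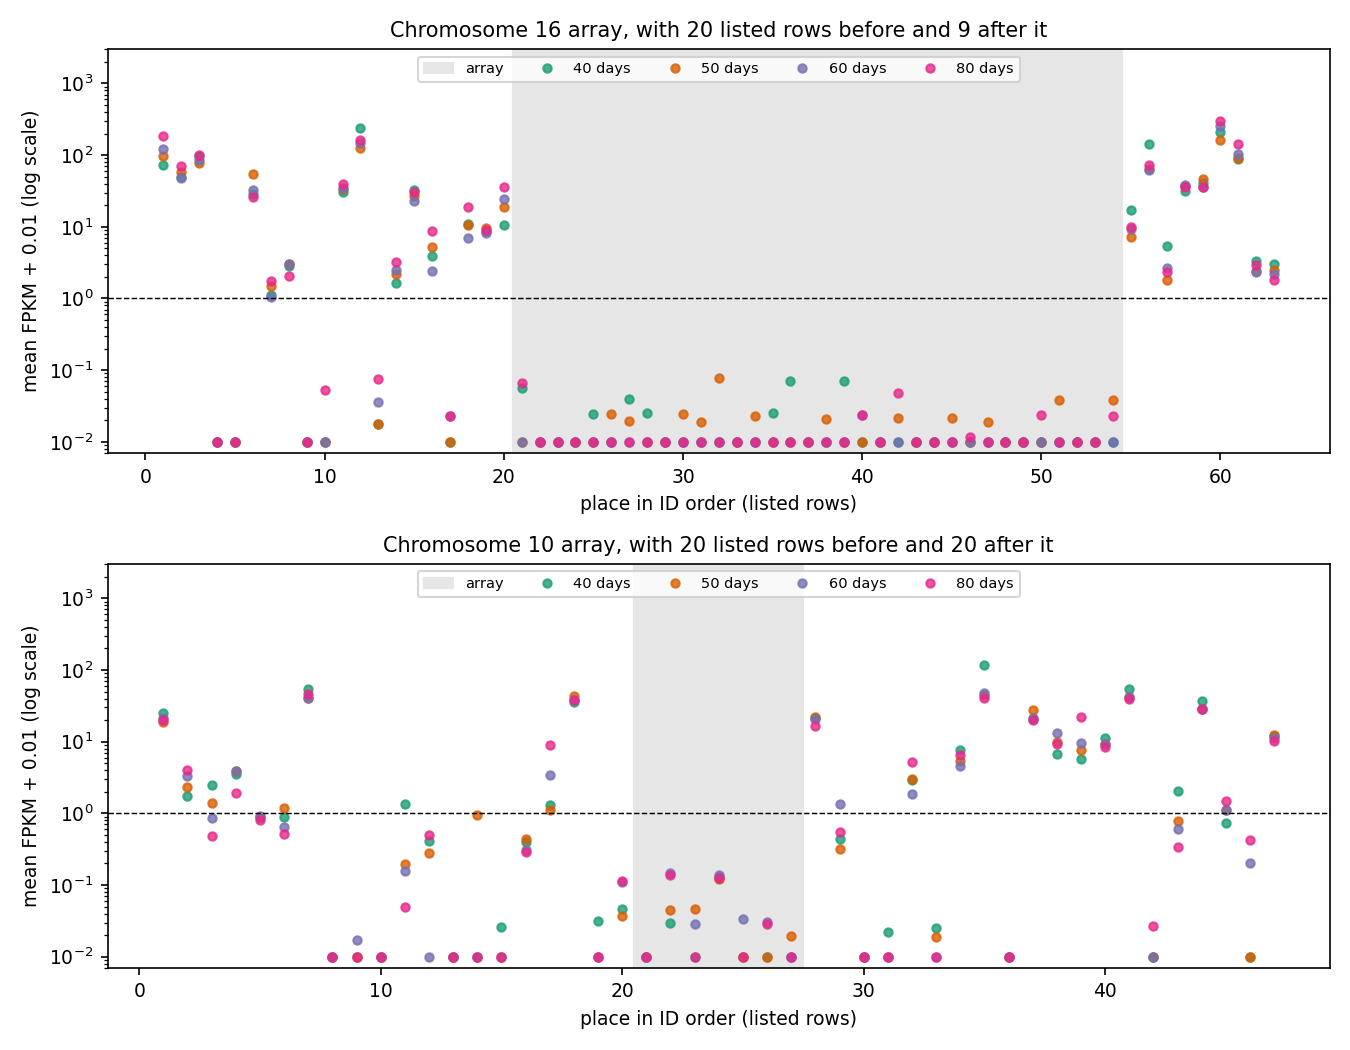
Mean FPKM of each age, with 0.01 added and on a log scale, for each array (grey) and for up to 20 listed rows on each side in ID order; the dashed line marks 1 FPKM. All 34 members on chromosome 16 and all 7 on chromosome 10 lie below the line at every age, while 23 of 29 and 22 of 40 flanking rows passed the filter of 1 FPKM in at least 3 libraries.

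The rows around the arrays were for the most part measured at ordinary levels. Of the 29 rows flanking the chromosome 16 array (20 before it and the 9 that remain on its part of the ID series after it), 23 reached 1 FPKM in at least 3 libraries, and the median of their means was 10.9 FPKM. The chromosome 10 array lay in a quieter neighbourhood, where 22 of 40 flanking rows passed and the median was 0.904 FPKM. There the low stretch began outside the array, since VIT_10s0042g00830 (at most 0.213 FPKM) and VIT_10s0042g00820 (at most 0.0636 FPKM) just before it were also low. The nearest rows at ordinary levels were VIT_10s0042g00800, with a median of 39.2 FPKM, and VIT_10s0042g00950 just after the array, with a median of 20.3 FPKM.

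Ordered by ID, the chromosome 16 array was the longest low stretch of the table. Counting runs of consecutive listed IDs that stayed below 0.3 FPKM in all 12 libraries (a level chosen after the members' values were seen), the table held 66 runs of 5 or more. The longest had 34 rows and coincided with the chromosome 16 array from its first to its last member. The second longest had 12 rows. The chromosome 10 array, with both low rows before it, made a run of 9; 5 runs had this length and 2 were longer. With the level at 1 FPKM, the longest run was again the 34 rows of the chromosome 16 array, and the next had 21 rows, while the run holding the chromosome 10 array ranked at 19 of the 146 runs of 5 or more.

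**Figure D2:**
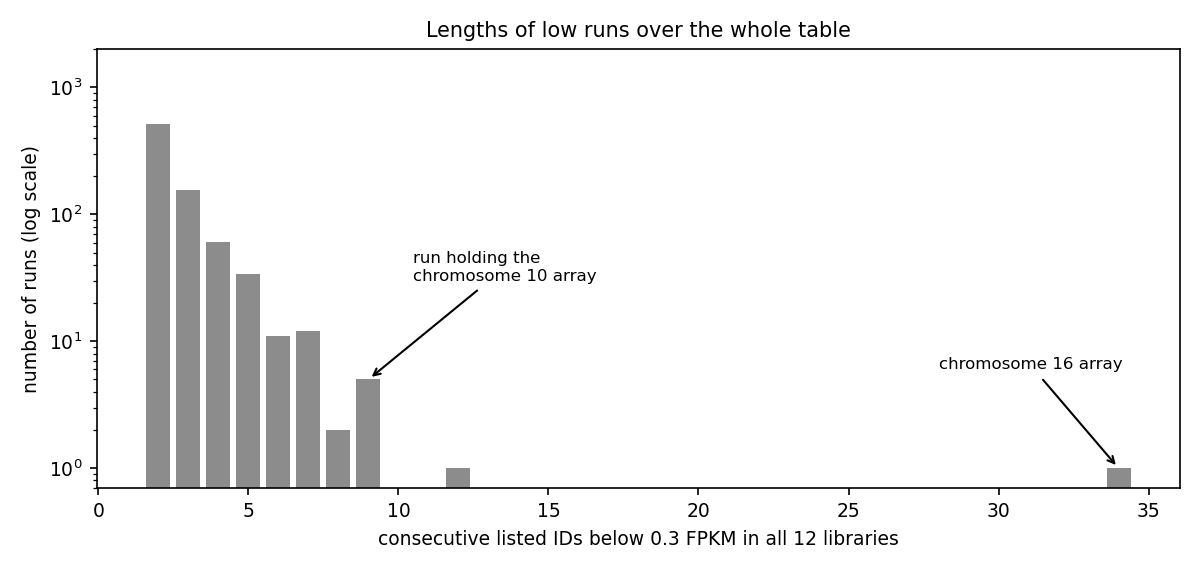
Number of runs (log scale) by length, where a run is a stretch of at least 2 consecutive listed IDs below 0.3 FPKM in all 12 libraries. Runs were counted within each part of the ID series, and the newGene rows, which carry no position, were left out. The chromosome 16 array, 34 rows long, stands apart from the next run of 12 rows, and the chromosome 10 array lies in 1 of 5 runs of 9 rows.

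Many of the values above 0 stood near whole multiples of the smallest value of the same gene, though not all did. FPKM values do not give the depth itself. How deep the libraries were relative to library a at 40 days was read from the main peak of the ratios of low values. It lay between 0.84 (60 days, library c) and 1.74 (50 days, library a) times the depth of that library. The peak for library c at 60 days was the weakest, at 4.12 times the median density of the ratios, against at least 8.0 times in the others. After this scaling, VIT_16s0100g00750 had values in the ratio 1 to 2.002 to 4.088. Of the 12 members with at least 2 values above 0, 28 values other than the gene's smallest could be set against that smallest one, and 21 fell within 0.15 of a whole number. That count was 9 of 10 on chromosome 16 and 12 of 18 on chromosome 10, and the largest ratio was 6.33, in VIT_10s0042g00900. The misses on chromosome 10 were mostly in that gene, with ratios such as 3.22, 3.28 and 5.58. These counts are a description only. The depth scaling was itself read from low values, members included, so it tends to bring equal smallest values to a ratio of 1. Some ratios also fall this near a whole number whatever the values, and the share among other low rows was not computed. In VIT_10s0042g00870 the smallest step was 0.0494 FPKM at the depth of library a at 40 days, so that 1 FPKM would be 20.3 such steps. VIT_16s0100g01110 had the smallest values above 0, 0.00256 and 0.00226 FPKM in libraries b and c at 80 days, far below 0.0481 FPKM, the median smallest step of the 8 members of the array with at least 2 values above 0.

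In the chromosome 16 array, 31 of 408 member values were above 0 (7.60%). Rows outside the arrays that also stayed below 0.3 FPKM in all libraries numbered 4536, and 21.0% of their values were above 0. The smallest of these was 4.35e-316 FPKM, so some count as above 0 in name only. Above 0.001 FPKM the share was 19.8% in these rows and still 7.60% in the array. Among the 34 members, 13 had a value above 0 in 1 library, 6 in 2 and 2 in 3, and no member had one in more than 3 libraries. Of the other low rows, 73.3% were above 0 in at most 3 libraries, a share that includes the 42.5% at 0 in all libraries. Counted in the same way, all 34 members of the array were. Values came from more than 1 age in 5 members only.

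By age, members of the chromosome 16 array above 0 in at least 1 library numbered 7 at 40 days and 12 at 50 days. At 60 days there was 1, and at 80 days there were 6. As a share of all member values, 8.82% were above 0 at 40 days, 13.7% at 50 days, 0.980% in the 60-day libraries and 6.86% in the 80-day ones. The share in the other low rows stayed between 20.2% and 21.8% at the 4 ages. The single member above 0 at 60 days was VIT_16s0100g01010, at 0.0416 FPKM in library a.

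Libraries of one age differed widely. At 50 days, 2, 3 and 9 members of the chromosome 16 array were above 0 in libraries a, b and c, and at 80 days 0, 1 and 6. Library c thus held most of the values at both ages, while at 40 days it held 1 against 4 in each of the others, and at 60 days none. Without library c the share of values above 0 was 7.35% at 50 days and 1.47% at 80 days. Without both of these libraries it was 4.71% over all ages. At 60 days no value was left without library a. By estimated relative depth, the deepest library, a at 50 days (1.74), had 2 members above 0, and library c at 50 days (1.21) had 9. The part of depth in these counts was not tested.

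The summed level of the chromosome 16 array followed the same libraries. It was 0.235, 0.312 and 0.179 FPKM in libraries a, b and c at 40 days, 0.055, 0.182 and 0.441 FPKM at 50 days, 0.0416, 0 and 0 FPKM at 60 days, and 0, 0.00256 and 0.406 FPKM at 80 days. The ranges of 40, 50 and 80 days overlapped. All 3 libraries at 60 days lay below the lowest library at 40 days and below the lowest at 50 days, and within the range of 80 days. Since scores over chosen members are given here without a test, this is a description, and it rests on low values in few libraries.

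**Figure D3:**
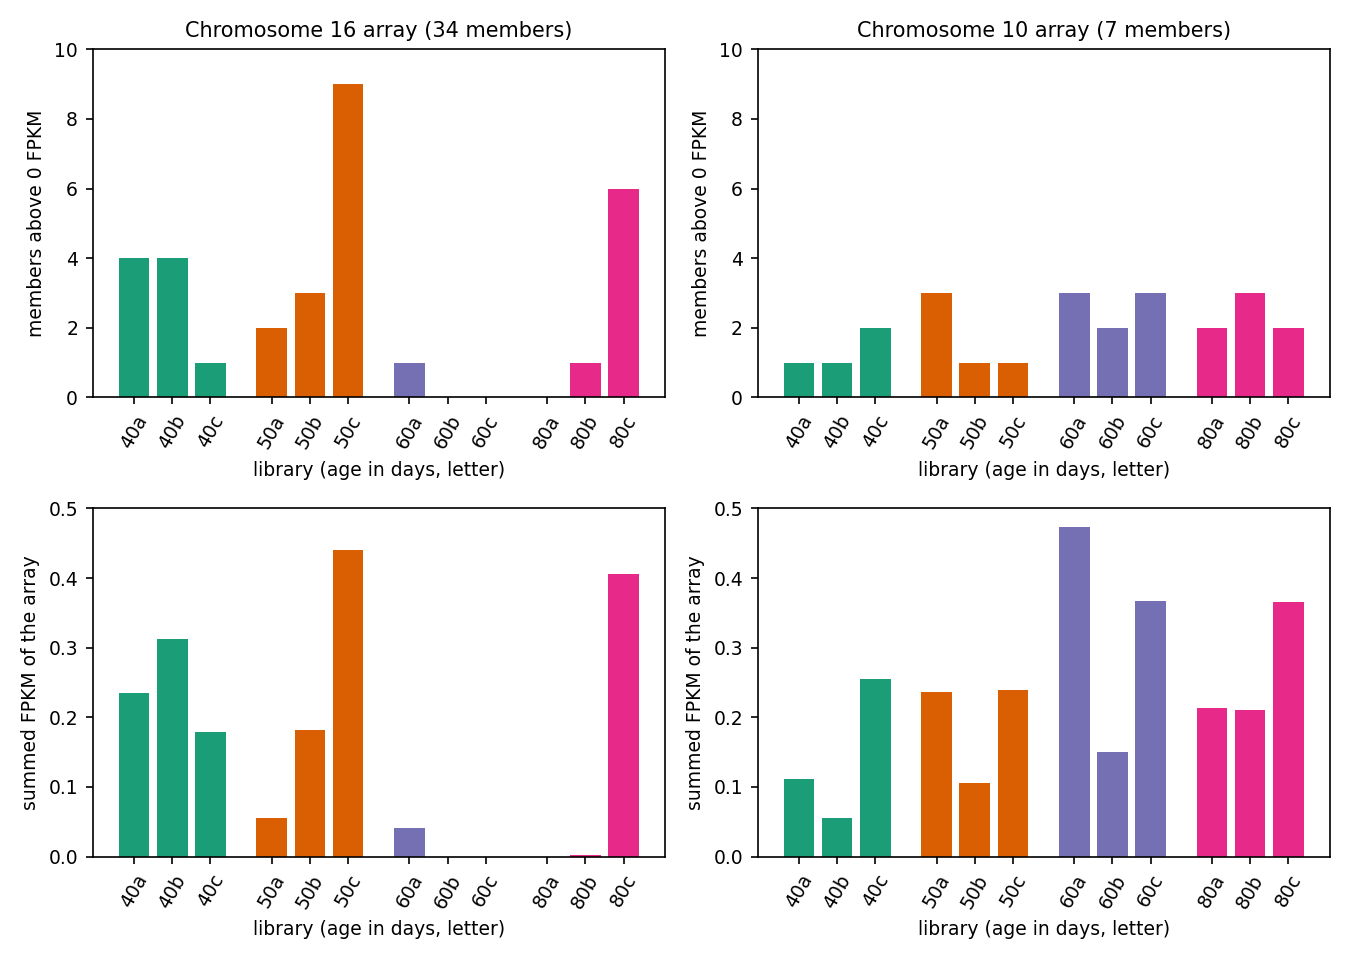
Number of members above 0 FPKM (top) and summed FPKM (bottom) in each library, for the chromosome 16 array (left) and the chromosome 10 array (right); bars are single libraries, coloured by age. On chromosome 16 library c leads at 50 days (9 members) and at 80 days (6 members), and at 60 days libraries b and c, and at 80 days library a, are at 0.

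The highest members of the chromosome 16 array by mean FPKM were VIT_16s0100g00750, given above, and 4 others. VIT_16s0100g00910 had values at 50 days alone, 0.0922 FPKM in library b and 0.109 FPKM in library c. VIT_16s0100g01000 had values at 40 days alone, 0.0953 FPKM in library a and 0.0899 FPKM in library b. VIT_16s0100g00950 rested on a single library, c at 40 days, with 0.179 FPKM. VIT_16s0100g01030 was at 0.0356 FPKM in library c at 50 days and 0.114 FPKM in library c at 80 days. Each of these members was listed at 0 in at least 9 of the 12 libraries, and each had at least 1 library at 0 at every age.

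The chromosome 10 array was low too, and in most libraries its signal was concentrated in 2 members. Of its 84 member values 24 were above 0 (28.6%, against 21.0% in the other low rows). Its 2 highest members, VIT_10s0042g00900 and VIT_10s0042g00870, carried 86.3% of its FPKM summed over all libraries, with values above 0 in 10 and 8 libraries. By library their share was 41.6% in library a at 50 days and 63.9% in library c at 60 days. It was 73.1% in library b at 80 days, 88.5% in library a at 60 days and 100% in every other library. The other members above 0 each had a value in 1 or 2 libraries. Among them were VIT_10s0042g00890, the third highest, at 0.110 FPKM in library a at 50 days and 0.0545 FPKM in library a at 60 days, and VIT_10s0042g00930, the last member, at 0.0281 FPKM in library a at 50 days. Recurrent low values were not particular to the array. VIT_10s0042g00830, the low row just before it, was at 0 only in library c at 40 days and library b at 50 days. Its means were 0.0357, 0.0267, 0.0988 and 0.105 FPKM at 40, 50, 60 and 80 days. Among the 4536 other low rows, 850 were above 0 in at least 6 libraries.

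VIT_10s0042g00900 had the highest mean of all 41 members, 0.120 FPKM, and its 4 ages overlapped. It was at 0.111, 0.056 and 0.197 FPKM in libraries a, b and c at 40 days, at 0.0984, 0 and 0.240 FPKM at 50 days, at 0.286, 0.104 and 0 FPKM at 60 days, and at 0.109, 0.053 and 0.188 FPKM at 80 days. No age stood above or below another with all its libraries.

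VIT_10s0042g00870 was seen in more libraries at the later ages. It was at 0, 0 and 0.0579 FPKM in libraries a, b and c at 40 days and at 0, 0.105 and 0 FPKM at 50 days. At 60 days it was at 0.133, 0.0468 and 0.234 FPKM, and at 80 days at 0.104, 0.101 and 0.177 FPKM. All 3 libraries at 80 days lay above all 3 at 40 days, whereas 60 days overlapped both earlier ages. No other member of either array had all libraries at 80 days above all at 40 days. Among 850 rows outside the arrays that were as low and above 0 in at least 6 libraries, 12.2% were separated in this direction. Among all 20639 rows with any value above 0, 21.3% were. VIT_10s0042g00870 itself reached 6 libraries above 0 only through its values at 60 and 80 days. In units of its smallest depth-scaled value it stood at 2.04, 2.02 and 4.18 in libraries a, b and c at 80 days, against 1 in the single library above 0 at 40 days.

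**Figure D4:**
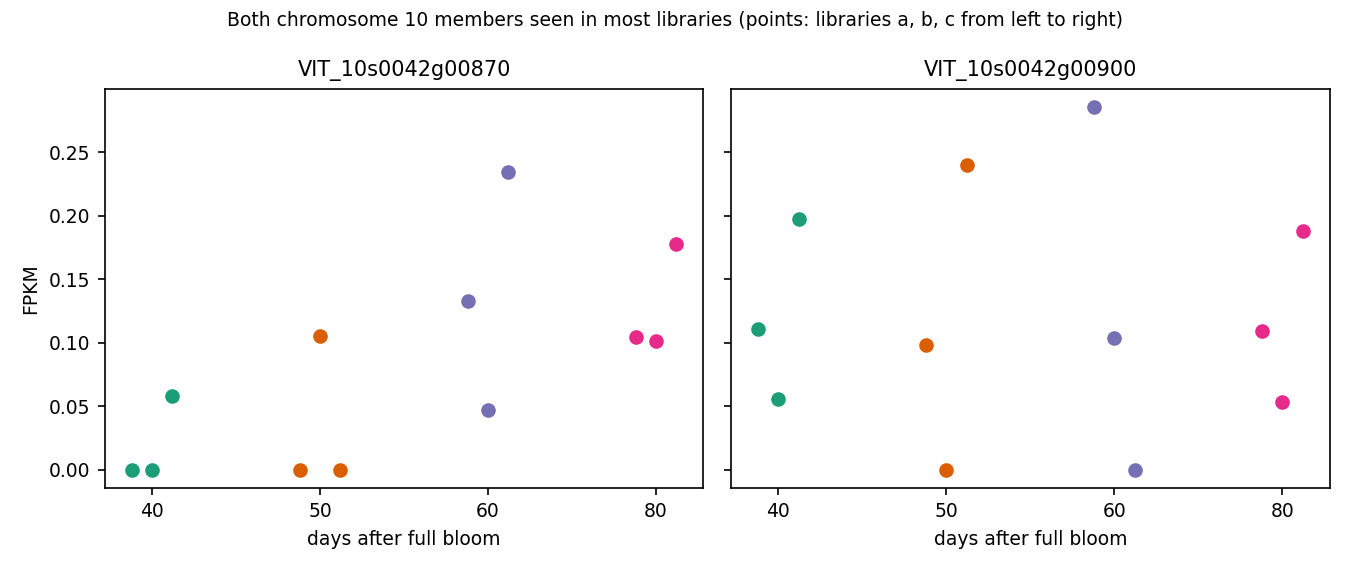
FPKM of VIT_10s0042g00870 (left) and VIT_10s0042g00900 (right) in each of the 3 libraries of each age; points are libraries a, b and c from left to right. VIT_10s0042g00870 is above 0 in all libraries of 60 and 80 days and in 1 library each of 40 and 50 days, while VIT_10s0042g00900 spreads over much the same range at every age.

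The summed level of the chromosome 10 array averaged 0.141 ± 0.10 FPKM at 40 days (SD, n = 3 at each age) and 0.194 ± 0.077 FPKM at 50 days. It averaged 0.330 ± 0.16 FPKM at 60 days and 0.263 ± 0.088 FPKM at 80 days. The ranges of the ages overlapped, with 0.056 to 0.255 FPKM at 40 days and 0.211 to 0.365 FPKM at 80 days.

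No member entered the test for change with age. The test was fitted with limma on log2(FPKM + 1) over rows that reached 1 FPKM in at least 3 libraries, and 0 of the 41 members did so, against 14743 rows (65.3%) of the table. A row was called when its Benjamini-Hochberg adjusted p was under 0.05 and its difference at least 1 on the log2 scale. Among all tested rows, 11.9% were called at 50 against 40 days, 4.32% at 60 against 50 days, 9.48% at 80 against 60 days, 23.1% at 80 against 40 days and 30.6% in the F test over the 4 ages. With 0 members tested, their count of 0 says nothing against these shares. Among the 45 tested flanking rows the calls were 4, 1, 4, 9 and 13 in the same order, or 8.89%, 2.22%, 8.89%, 20% and 28.9%.

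Fitted without the filter, 27 members had a value above 0. None could be called: the highest member value allows a difference of at most 0.36 on the log2(FPKM + 1) scale, under the minimum of 1, so the count of 0 in each of the 5 comparisons was fixed by that minimum. Of the 20639 rows in that fit, 8.5% were called at 50 against 40 days, 2.86% at 60 against 50 days, 6.61% at 80 against 60 days, 16.7% at 80 against 40 days and 21.8% in the F test. The differences of the 27 members were at most 0.15 on the log2(FPKM + 1) scale between any pair of ages compared. At an unadjusted p under 0.05 the limma fit had 2 members at 50 against 40 days, 1 at 60 against 50 days, 0 at 80 against 60 days, 2 at 80 against 40 days and 0 in the F test. The share of all 20639 rows under that threshold was not computed, so these counts show no excess or lack. Adjusted over the 20639 rows, the lowest p of any member was 0.080, for VIT_16s0100g01000 at 80 against 40 days (-0.09 ± 0.036 SE, on 0 libraries above 0 at 80 days and 2 at 40 days). VIT_10s0042g00870 had 0.15 ± 0.065 SE at 80 against 40 days on that scale (limma adjusted p = 0.091). A pseudocount of 1 compresses differences at this level. A fit without the filter and with a pseudocount of 0.1 was chosen after the data were seen. In it, the difference of VIT_10s0042g00870 was 0.95 ± 0.38 SE on the log2(FPKM + 0.1) scale with limma adjusted p = 0.059. That of VIT_16s0100g01000 was -0.63 ± 0.24 SE with limma adjusted p = 0.0501. With this pseudocount, 0 members were called at 80 against 40 days, where 24.5% of all rows in that fit were. A value listed at 0 does not show that a member is absent from the fruit.

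The tissue could not be checked against fruit markers, since the IDs carry no names. By the fixed rule for naming genes, rows of like profile were to be sought for the tested members of each array. With 0 members tested there was no profile to match, and none is named.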

How the data were processed

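Victoria grape fruit of 4 ages was measured by RNA sequencing of polyadenylated RNA. The authors deposited 1 table of FPKM values. Per the submitters' processing notes, the tools were FastQC, Trimmomatic 0.36, TopHat2, Cufflinks and edgeR, with no roles stated. For the build, the annotation and fragments matching several genes, the handling is not given in the sources used here. All 12 columns were matched to samples by description (0 left over), and 0 pairs of columns were identical. Groups are the labelled ages. The members and lists were chosen with earlier results of these data known.

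Values were used as deposited. Members were summed per library. Relative depth was the main peak of the ratio between libraries in rows under 0.2 FPKM. The model was limma 3.58.1 (R 4.3.3) on log2(FPKM + 1), 1 mean per age, intensity trend, 8 residual degrees of freedom, with rows of at least 1 FPKM in at least 3 libraries, tested on simulated data. Python 3.11.15, numpy 2.4.6 and pandas 2.3.3 were used. Named are the 5 highest members by mean on chromosome 16, the 3 highest on chromosome 10, the end members, members called in any comparison (0) and, per array, the most variable member of at least 1 FPKM (0 found). VIT_16s0100g01010 and VIT_16s0100g01110 were named after their values were seen. Exact zeros can be failed estimates and are given as listed at 0. Alternatives were other pseudocounts, filters and scalings, the replicate block, sample weights, no minimum difference, and single libraries left out. No sequence is shown, since none is paired with these IDs.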

Additional observations from a re-analysis of the deposited data

How the results depend on the processing

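The count of members called was 0 in all 5 comparisons under every alternative run: pseudocounts of 0.1 and 5, a filter at 5 FPKM or none, scaling by the median of ratios or to a total of 1000000, sample weights, no minimum difference, each library left out, and, chosen after seeing the data, no filter with a pseudocount of 0.1. These zeros show no stability: only the fits without a filter held members (27), and with a pseudocount of 1 no member could reach the minimum difference. The fit without a filter and with a pseudocount of 0.1 alone left room for a call. The replicate block gave 0 as well. The values showed no clear pairing by letter: 4 of 18 same-letter pairs had deviations correlated over 0.1 (range -0.16 to 0.19) and 5 of 12 libraries correlated best with their own letter. Whether the letters mark shared plants or days is not stated. Leaving out the highest member of the chromosome 10 array, VIT_10s0042g00900, moved its summed level by more than 1 SD to 0.0193 FPKM at 40 days, 0.0812 FPKM at 50 days and 0.147 FPKM at 80 days. The other 37 recomputed sums moved by less than 1 SD, which is certain when 1 of 3 libraries is left out. Yet the mean of the chromosome 16 array at 80 days was 0.136 FPKM with all libraries and 0.00128 FPKM without library c. At 50 days it was 0.226 FPKM and, without library c, 0.119 FPKM. At 60 days it was 0.0139 FPKM and, without library a, 0 FPKM. The chromosome 10 array at 40 days was at 0.141 FPKM and, without library c, 0.0834 FPKM. Of 924 recomputed log2 differences of named members, 59 moved by more than the spread between libraries, all with another pseudocount, which rescales low values by construction. The other 865 show no stability, since many could not move. A changed filter or the replicate block leaves these differences as they are. Leaving out a library changes only comparisons with its age, and VIT_10s0042g00840 was at 0 throughout. The absolute depth is unknown, which limits what the low values can show.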
